A study of Mus musculus with 12 samples.

Results

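Open chromatin after a Western diet of the mothers alone was set against open chromatin after a Western diet of the offspring alone, in mouse aortic endothelial cells (MAECs), which line the vessel wall where atherosclerotic plaques form. The compared features were ATAC-seq peaks, stretches of DNA that a transposase cut more often than their surroundings. A peak of one group's list that no peak of the other group's list overlapped by 1 bp or more was called one-sided, and the others were called shared. There were 15832 one-sided peaks among 28319 in the maternal-only group and 6419 among 18962 in the offspring-only group, in all 22251 of 47281 peaks in both lists and of 95734 in the lists of all 4 groups of the study.

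The maternal-only group, WDM-CDO, was offspring on CD whose mothers had been on WD. The offspring-only group, CDM-WDO, was offspring of mothers on CD that were themselves put on WD again for 4 weeks; the sources used here do not say when they had met it earlier. WD was read as Western diet and CD as the control diet, which the labels abbreviate, and the sources used here give no strain, sex or age. Of the other 2 groups, CDM-CDO had CD in mothers and offspring, and WDM-WDO had WD mothers and offspring put on WD again for 4 weeks. The peak names carried the tag 08w in both CDO lists and 12w in both WDO lists. Its meaning is not given, and whatever it stands for cannot be told apart from the diet of the offspring.

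Each group had 2 ATAC-seq samples but 1 peak list, so there was no replicate to compare and no difference below carries a p-value. Percentages have 95% Wilson intervals, which cover counting error only. The reads stacked over the highest point of a peak, its summit, were worked back from the deposited fold and p columns and serve as the measure of depth. At strong shared peaks the pileup above background in CDM-WDO was a median 0.556 times that in WDM-CDO (middle 50% of peaks, 0.488 to 0.636). A call needed about 15 reads in either list where the background was lowest (5.59 reads in WDM-CDO and 5.49 in CDM-WDO), so a region absent from the list of CDM-WDO is not shown to be closed, and open below means only that a peak was called. For each one-sided peak the pileup that this ratio predicts in the other list is given below as the expected reads.

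Promoters that many tissues share are usually rich in CpG and open in most cells, whereas those of genes used by one cell type are often poor in CpG and open in that type alone. Endothelium is marked by junction proteins, VEGF and angiopoietin receptors and ETS and SOX transcription factors. It answers flow through nitric oxide and answers lipid and cytokines through NF-kB, adhesion molecules and chemokines, which recruit monocytes and T cells into the wall. Cells prepared from an aorta can therefore hold leukocytes beside endothelium.

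The start regions of 5 genes show the contrast in sequence, from 250 bases before to 50 bases after the transcription start, taken from RefSeq on GRCm38.p6 and printed 5′ to 3′ on the strand of the gene. The first pair belong to T lymphocyte genes with a peak in WDM-CDO and none in CDM-WDO, the tyrosine kinase gene Lck (chr4:129558323-129558622, minus strand) and the T cell receptor subunit gene Cd3g (chr9:44980382-44980681, minus strand). Dot1l, a histone H3 methyltransferase gene (chr10:80754953-80755252, plus strand), had its start peak in WDM-CDO and in no other list. Notch4, an endothelial Notch receptor gene (chr17:34564045-34564344, plus strand), had its start peak in CDM-WDO and in no other list. S100a8, a neutrophil calprotectin gene (chr3:90668821-90669120, plus strand), had one in both WDO lists. Capitals mark matches to the motifs described below.

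Lck: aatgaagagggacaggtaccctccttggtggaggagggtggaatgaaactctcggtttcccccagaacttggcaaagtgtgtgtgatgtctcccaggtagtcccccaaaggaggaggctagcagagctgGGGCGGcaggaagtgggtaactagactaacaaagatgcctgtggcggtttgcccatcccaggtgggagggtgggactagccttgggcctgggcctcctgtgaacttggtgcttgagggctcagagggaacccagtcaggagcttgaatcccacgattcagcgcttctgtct
Cd3g: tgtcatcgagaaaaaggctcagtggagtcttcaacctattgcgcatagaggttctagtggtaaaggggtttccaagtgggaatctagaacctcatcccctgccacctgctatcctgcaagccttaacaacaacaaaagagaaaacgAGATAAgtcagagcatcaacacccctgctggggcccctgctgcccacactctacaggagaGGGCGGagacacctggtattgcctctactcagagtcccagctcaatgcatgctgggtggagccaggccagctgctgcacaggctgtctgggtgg
Dot1l: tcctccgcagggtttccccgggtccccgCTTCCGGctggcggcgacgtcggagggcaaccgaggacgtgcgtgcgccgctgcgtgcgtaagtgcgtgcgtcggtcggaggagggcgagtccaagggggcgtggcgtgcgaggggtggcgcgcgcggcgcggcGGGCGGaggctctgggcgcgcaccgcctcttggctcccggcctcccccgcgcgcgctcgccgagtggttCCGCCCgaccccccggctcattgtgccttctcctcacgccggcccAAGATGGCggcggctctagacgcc
Notch4: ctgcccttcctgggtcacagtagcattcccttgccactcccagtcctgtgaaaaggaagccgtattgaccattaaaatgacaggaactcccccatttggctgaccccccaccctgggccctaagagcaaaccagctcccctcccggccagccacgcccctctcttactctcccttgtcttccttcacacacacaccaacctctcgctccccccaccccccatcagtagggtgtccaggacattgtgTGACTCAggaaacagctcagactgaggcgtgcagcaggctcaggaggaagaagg
S100a8: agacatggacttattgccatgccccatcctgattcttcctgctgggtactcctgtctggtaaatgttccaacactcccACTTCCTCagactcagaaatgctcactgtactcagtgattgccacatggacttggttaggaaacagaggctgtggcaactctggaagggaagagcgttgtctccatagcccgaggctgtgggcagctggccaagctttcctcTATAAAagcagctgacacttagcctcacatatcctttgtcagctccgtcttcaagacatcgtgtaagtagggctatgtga

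The peaks covered all 300 bases of each start region except that of Notch4, of which 279 were covered. Lck, Cd3g, Notch4 and S100a8 are poor in CpG, with 5, 4, 5 and 4 in these 300 bases, and Dot1l is rich, with 49. Lck and Cd3g each have 1 match to the SP and KLF motif GGGCGG, and Cd3g also has 1 to the GATA motif AGATAA. Dot1l has 2 matches to GGGCGG, 1 to the ETS motif CCGGAAG and 1 to the YY1 motif AAGATGGC. Notch4 has a match to the AP-1 motif TGANTCA that begins 4 bases before the start. In S100a8 the TATA motif TATAAA begins 30 bases before the start and a match to the PU.1 motif GAGGAAGT 172 bases before it. Both strands were searched. These motifs were found in 46.7% (GGGCGG), 9.68% (AGATAA), 11.7% (CCGGAAG), 3.07% (AAGATGGC), 7.04% (TGANTCA), 12.7% (TATAAA) and 3.15% (GAGGAAGT) of 21045 start regions of the same length. A match describes the sequence and is not a measured binding site.

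One-sided peaks were the weaker part of each list. Without overlap in the other list were 55.9% of WDM-CDO peaks (55.3 to 56.5%) and 33.9% of CDM-WDO peaks (33.2 to 34.5%). Their median −log10 q was 4.22 in WDM-CDO, against 27 for its shared peaks, and 2.66 in CDM-WDO, against 11.5. Their median summit held 26 reads in WDM-CDO and 19 in CDM-WDO, against 72 and 43 at shared peaks, and their median width was 450 and 389 bp, against 832 and 633 bp. Of the strongest 10% of each list, 68 of 2832 peaks were one-sided in WDM-CDO and 0 of 1897 in CDM-WDO, which allows a share of up to 0.202% by the Wilson interval. The larger share in WDM-CDO went with its longer list and greater depth. With all lists cut to the 18962 strongest peaks the shares were 39.6% and 39.2%. Limited to peaks whose expected reads were 2 or more times those a call needed, they were 19.6% (2118 of 10788) and 19.5% (2956 of 15157). This limit is unlike for the sides, because pileups were scaled by 0.556 from WDM-CDO and by 1.80 from CDM-WDO. It kept 10788 of 28319 WDM-CDO peaks but 15157 of 18962 CDM-WDO peaks. The near-equal shares therefore do not compare peaks of like strength.

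**Figure D1:**
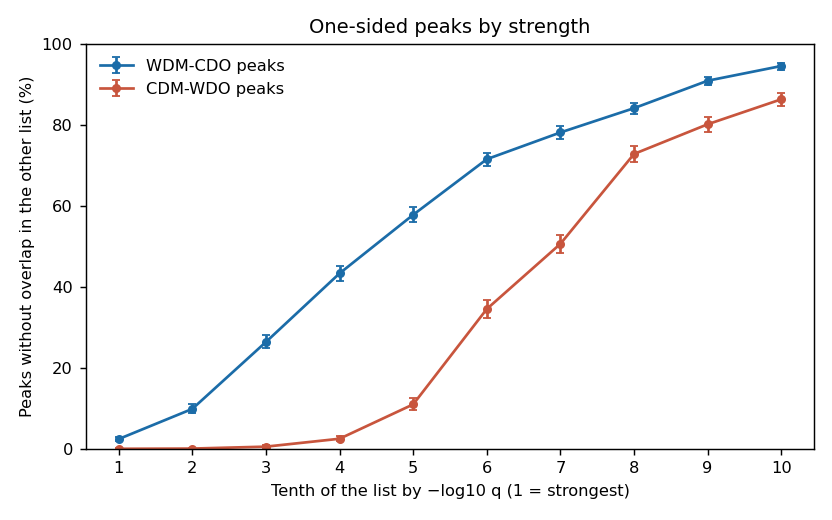
Share of peaks without overlap in the other list (percent, vertical axis) in 10 equal steps of each list, ordered by −log10 q from the strongest (1) to the weakest (10); bars are 95% Wilson intervals. The share climbs from 2.4% to 94.6% in WDM-CDO and from 0% to 86.3% in CDM-WDO, and in every step it is higher in WDM-CDO.

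The sides differed in where their peaks lay, though their peaks were not of like strength. Peaks of WDM-CDO alone lay at a gene end in 18.2% of cases (2881 peaks, 17.6 to 18.8%), where a gene end is the stretch within 1 kb of a transcription start, or of either end of the gene where the reference does not give its strand. Peaks of CDM-WDO alone did so in 4.67% (300 peaks, 4.18 to 5.22%), and shared peaks in 62.9% and 62.6%. Part of this gap went with strength, because weak one-sided peaks seldom lay at a gene end on either side. Below a −log10 q of 2 the shares were 4.89% in WDM-CDO and 4.10% in CDM-WDO. From 3 to 5 they were 14.6% and 5.26%, and from 5 to 10 they were 25.4% and 9.20%. At 10 or more they were 34.4% and 19.4%, the latter of 36 peaks. The WDM-CDO share was the higher in every step of strength. Beyond 100 kb from any protein-coding gene lay 12.1% of the peaks of WDM-CDO alone and 30.6% of those of CDM-WDO alone, against 3.04% and 3.05% of shared peaks. Inside genes but away from their ends lay 40.4% and 33.4%. The shares away from gene ends were not compared at like strength.

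The lists of CDM-CDO and WDM-WDO, which had no part in choosing these peaks, held more of the WDM-CDO side than of the CDM-WDO side, though in WDM-WDO this turned when all lists were limited to a −log10 q of 5 or more (43.3% against 45.3%). Of the 15832 peaks of WDM-CDO alone, 5906 were overlapped in CDM-CDO (37.3%, 36.6 to 38.1%), 4814 in WDM-WDO (30.4%, 29.7 to 31.1%), 3078 in both and 8190 in neither (51.7%). Of the 6419 peaks of CDM-WDO alone, 425 were overlapped in CDM-CDO (6.62%, 6.04 to 7.26%), 926 in WDM-WDO (14.4%, 13.6 to 15.3%), 175 in both and 5243 in neither (81.7%). Shared peaks of WDM-CDO were overlapped in 87.0% and 90.8% of cases. The share depended on strength. Among peaks with a −log10 q of 10 or more, the 3086 of WDM-CDO alone were overlapped in CDM-CDO in 87.8% of cases and in WDM-WDO in 62.2%, and the 36 of CDM-WDO alone in 30.6% and 63.9%. Strong peaks of WDM-CDO alone were thus found more often in the list that shares its offspring diet and tag than in the list that shares its maternal diet, and those of CDM-WDO alone more often in WDM-WDO, which likewise shares the offspring diet and tag.

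**Figure D2:**
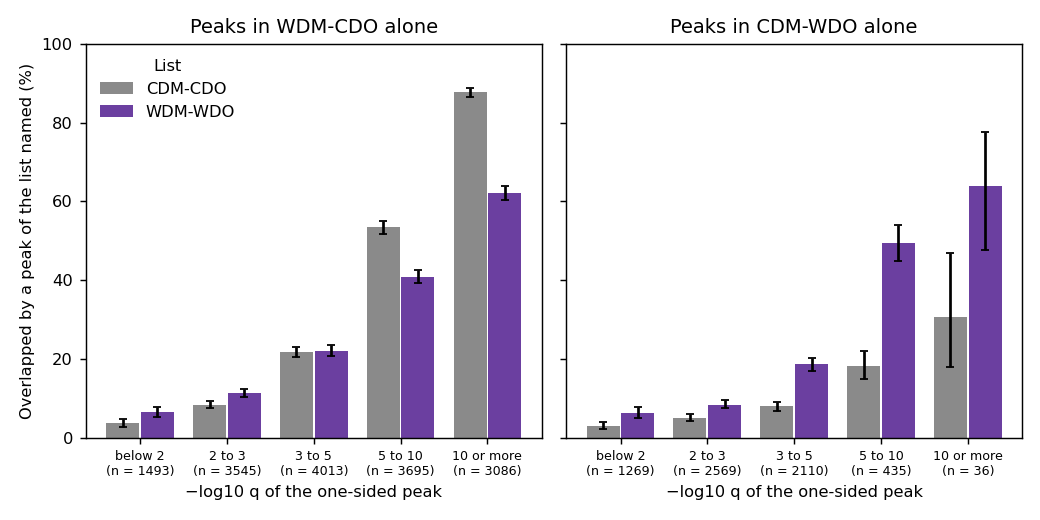
Share of one-sided peaks overlapped by a peak of CDM-CDO (grey) or of WDM-WDO (purple), in percent, by the −log10 q of the one-sided peak; the left panel holds peaks of WDM-CDO alone, the right panel peaks of CDM-WDO alone, and bars are 95% Wilson intervals. From a −log10 q of 5 upward the grey bar is the higher in the left panel and the purple bar in the right, while among weaker peaks of WDM-CDO alone both shares lie at or below 22.1%.

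Over genes, a gene-end peak in WDM-CDO alone was found at 2576 of 21631 protein-coding genes (11.9%) and in CDM-WDO alone at 228 (1.05%), while 8779 had one in both lists and 10048 in neither. Of the 2576 genes, 1754 also had one in CDM-CDO (68.1%), 1534 in WDM-WDO (59.6%) and 538 in neither (20.9%). Of the 228 genes, 46 had one in CDM-CDO (20.2%), 66 in WDM-WDO (28.9%) and 139 in neither (61.0%). Limited to peaks with expected reads of 2 or more times those a call needed, the counts were 681 and 159, under a limit that is stricter for WDM-CDO peaks. Genes of 25 lists with 425 members, grouped below by what they do, had 59 ends in WDM-CDO alone and 8 in CDM-WDO alone. The expected reads in the other list reached 15 for 54 of the 59 and for all 8, and 30 for 28 and 7. A call needs more than 15 reads where the background is higher. The 8 were weak calls, with 19 to 44 reads and a median −log10 q of 3.88, against a median of 10.9 for the 59. When both lists were merged into 30458 regions within 100 kb of a protein-coding gene, 45.7% were in WDM-CDO alone and 14.6% in CDM-WDO alone, and these values are the background for the counts of regions below.

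T lymphocyte genes were open in WDM-CDO and mostly not called in CDM-WDO. Of 16 members, 11 had a gene-end peak in WDM-CDO and none in CDM-WDO (68.8%, against 11.9% of all genes). The reverse held for 0 (1.05% of all genes), Gata3 had one in both and 4 had one in neither. Lck had 60 reads at its summit in CDM-CDO, 113 in WDM-CDO and 40 in WDM-WDO, and no peak in CDM-WDO. Cd3e, a subunit of the T cell receptor complex, had 68 reads in CDM-CDO and 99 in WDM-CDO, and no peak in either WDO list. Cd3g and its neighbour Cd3d shared 1 peak, with 55, 91 and 38 reads and none in CDM-WDO. Each of these genes thus had its highest summit in WDM-CDO and its lowest, or none, among the WDO lists. These reads are not scaled for depth. Housekeeping genes also had their highest summed reads in WDM-CDO, with 1938, 2750, 1404 and 2195 in CDM-CDO, WDM-CDO, CDM-WDO and WDM-WDO. A highest summit in WDM-CDO is thus not particular to T lymphocyte genes. The costimulatory receptor gene Cd28 had 48, 71 and 33 reads and the coreceptor gene Cd8b1 39, 68 and 30, again with no peak in CDM-WDO. Cd2, Cd5, Cd4 and Themis had 43 to 59 reads in WDM-CDO. All 11 also had a peak in CDM-CDO and 9 had one in WDM-WDO, so it was CDM-WDO that lacked them. Their expected reads in CDM-WDO were 26.3 to 65.2, at least 30 for 10 of the 11.

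Around these T lymphocyte genes, 47 of 59 regions were in WDM-CDO alone (79.7%, 67.7 to 88.0%), 6 in CDM-WDO alone and 6 in both; 32 of the 47 were also in CDM-CDO and 20 in WDM-WDO. Bcl11b, a transcription factor gene of T cell commitment, had 8 regions in WDM-CDO alone and none in CDM-WDO, and Cd2 and Cd28 had 5 each. Il7r, the interleukin 7 receptor gene, went the other way, with 3 regions in CDM-WDO alone and a gene-end peak of 74 reads in WDM-WDO only. Summed over the T lymphocyte list, with a peak that genes share counted once, the gene-end summits held 838 reads in WDM-CDO and 52 in CDM-WDO, against 602 in CDM-CDO and 461 in WDM-WDO. Such sums are not scaled for depth, and the ratio of 0.556 at strong shared peaks covers the 2 compared lists only. The 52 reads in CDM-WDO all came from Gata3, which is also used outside T cells. The sums for endothelial identity genes were 425 and 302 reads (369 and 253 above background), against 231 and 253, in the same order. Those for B lymphocyte genes were 359 and 91 (320 and 74.5 above background), against 365 and 210. The part that the number of T cells in each preparation had in this was not tested, and fewer cells of a type and less open chromatin per cell cannot be told apart in such lists.

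**Figure D3:**
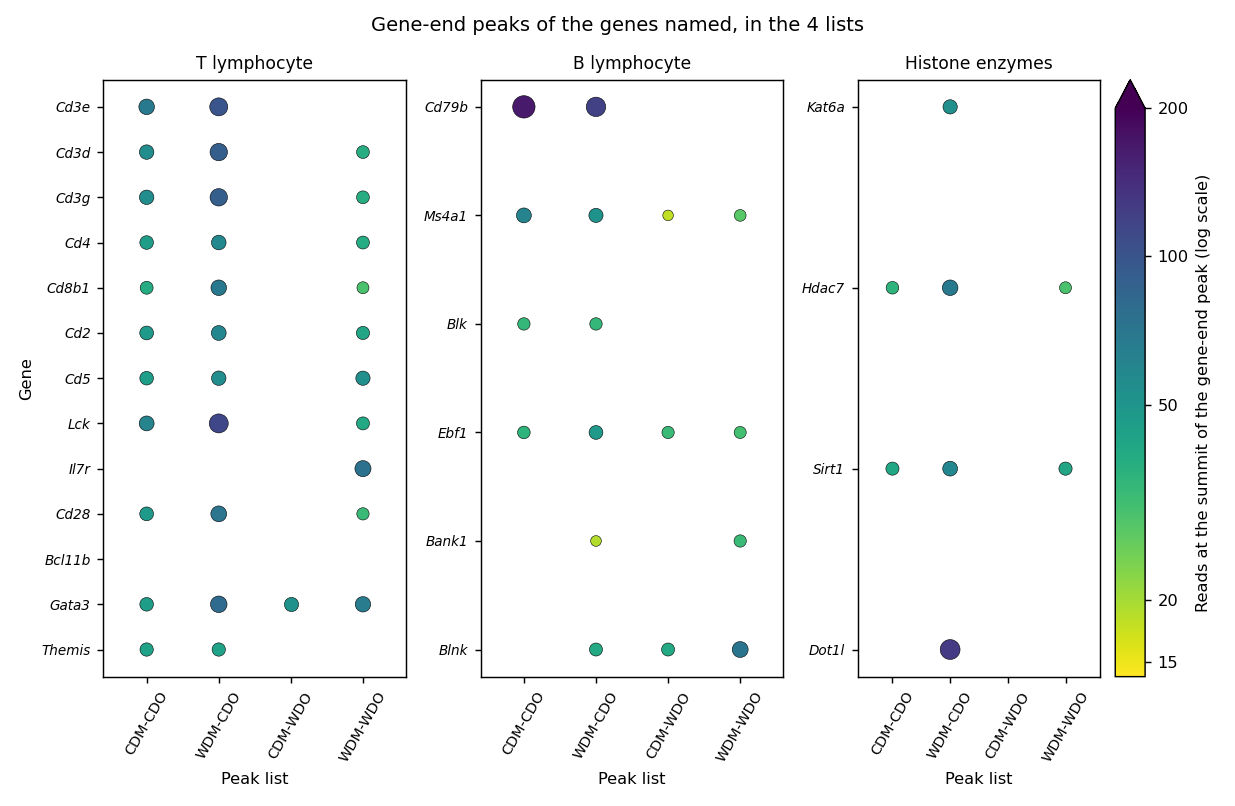
Gene-end peaks of the genes named in the text from the T lymphocyte, B lymphocyte and histone enzyme lists (genes on the vertical axis) in the 4 peak lists (horizontal axis). Colour on a log scale and dot size give the reads at the summit, values above 200 share the darkest colour, and an empty place means that no peak was called. Of the T lymphocyte genes drawn, only Gata3 has a dot in the CDM-WDO column, and the 18 chromatin enzyme and reader genes open in both lists are not drawn.

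B lymphocyte genes were one-sided at fewer members. Of 12 members, 4 had a gene-end peak in WDM-CDO alone (33.3%, against 11.9% of all genes) and 0 in CDM-WDO alone (1.05% of all genes). A further 3 had one in both and 5 in neither. The expected reads in CDM-WDO reached 30 for 1 of the 4. They were 21.3 for Blk and 12.9 for Bank1, the latter below the 15 that a call needed. Cd79b, a signalling subunit of the B cell receptor, had 167 reads in CDM-CDO and 120 in WDM-CDO, and no peak in either WDO list. The kinase gene Blk had 34 reads in both CDO lists and no peak in the WDO lists. Bank1 had 19 reads in WDM-CDO and 33 in WDM-WDO. Ms4a1, Ebf1 and Blnk had a peak in both compared lists. The regions near these genes numbered 14 of 26 in WDM-CDO alone (53.8%, 35.5 to 71.2%) and 6 in CDM-WDO alone (23.1%, 11 to 42.1%), so their intervals held the 45.7% and the 14.6% of all regions.

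The 10 strongest one-sided peaks of WDM-CDO all had a peak in CDM-CDO; their annotation was looked up after their values were seen. The first lay near the upper-coordinate end of Cd74, the invariant chain gene of class II antigen presentation, with 1512 reads in CDM-CDO, 1286 in WDM-CDO and 116 in WDM-WDO. Cd74 counts among the genes open in both lists because CDM-WDO had another peak of 105 reads at an end of the gene. The second lay over Igkc, the constant region of the immunoglobulin kappa chain (chr6:70726441-70726940), with 998 reads in CDM-CDO, 865 in WDM-CDO and no peak in the WDO lists. A peak over Ighm, the constant region of the IgM heavy chain (chr12:113420933-113422679), had 405 and 367 reads in the CDO lists and none in the WDO lists. Actb, the housekeeping gene of cytoplasmic actin, had a peak near its lower-coordinate end (chr5:142903131-142903444) with 450 and 410 reads in the CDO lists and none in the WDO lists. Local background under these 4 peaks in WDM-CDO was 59.0 to 120 reads, far above the list's lowest of 5.59, and peaks in artefact-prone regions were not filtered out. Other strong peaks of WDM-CDO alone lay inside the translation factor gene Eif4e3 (145, 241 and 61 reads in CDM-CDO, WDM-CDO and WDM-WDO), the circadian repressor gene Bhlhe41 (271 and 235 reads in the CDO lists) and the nuclease gene Dnase1l3 (262 and 217 reads in the CDO lists), the last 2 without a peak in the WDO lists. The other 3 of the 10 lay outside any annotated gene (203 and 181 reads in WDM-CDO) or in the pseudogene Gm32220 (117 reads).

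Macrophage and monocyte markers had a gene-end peak at 4, 4, 3 and 11 of 16 members in CDM-CDO, WDM-CDO, CDM-WDO and WDM-WDO, and their summed summits held 178, 221, 153 and 575 reads. These sums are not scaled for depth. Above background they were 199 reads in WDM-CDO and 137 in CDM-WDO, beside a median ratio of 0.556 at strong shared peaks. The lysosomal marker gene Cd68 had 51, 74, 65 and 123 reads. Only Fcgr1, an Fc receptor gene, had an end in WDM-CDO alone of the compared lists, at 19 reads, with 12.9 expected in CDM-WDO. Neutrophil markers had a gene-end peak at 0, 0, 1 and 4 of 12 members, the 1 in CDM-WDO being S100a8 with 22 reads, against 36 in WDM-WDO. Its expected reads in WDM-CDO were 35.3. The 10 strongest gene ends of CDM-WDO alone included those of 2 genes known from myeloid cells that also had a peak in WDM-WDO, the lectin receptor gene Clec4a3 (18, 34 and 38 reads in CDM-CDO, CDM-WDO and WDM-WDO) and the actin capping gene Capg (55 and 123 reads in CDM-WDO and WDM-WDO).

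Antigen presentation genes were open in both lists, at 13 of 16 gene ends, with 2 in WDM-CDO alone and 0 in CDM-WDO alone. Of all genes, 40.6% were open in both, 11.9% in WDM-CDO alone and 1.05% in CDM-WDO alone. The class II gene H2-Aa had 70 reads in WDM-CDO and 86 in CDM-WDO, against 63 in CDM-CDO and 123 in WDM-WDO, and H2-Eb1 had 70 and 82, against 53 and 134. H2-DMb1 likewise had more reads in CDM-WDO (36) than in WDM-CDO (30). H2-Ab1 had fewer (63 against 105, with 169 in CDM-CDO and 105 in WDM-WDO), as had H2-DMa (76 against 115, with no peak in the other 2 lists). These reads are not scaled for the depth of the lists. Relative to the median ratio of strong shared peaks, 0.556, a log2 ratio was taken at 11 antigen presentation genes. It lay above 0 at 10 and below 0 at 1 (median 0.165, range −0.07 to 1.17), against a median of −0.06 over 7499 genes. Tap1 and Psmb9 shared a peak, which counts once for each. Cd74 had no ratio, because its strongest end peaks (1286 reads in WDM-CDO, 105 in CDM-WDO) did not overlap. Tap2 and Nlrc5 had no peak in CDM-WDO to compare, and H2-DMb1 lay below 50 reads. The range leaves these genes out. Regions in CDM-WDO alone numbered 7 of 39 (17.9%, 8.98 to 32.7%), 3 near H2-Aa and 2 near Cd74, and all 7 were also in WDM-WDO. The ends in WDM-CDO alone were those of the peptide transporter gene Tap2 (56 reads) and the class I regulator gene Nlrc5 (49 reads), which also had a peak in CDM-CDO and WDM-WDO.

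Of 20 endothelial identity genes, 9 were open at an end in both lists, 1 in WDM-CDO alone, 0 in CDM-WDO alone and 10 in neither. The shares of all genes were 40.6, 11.9, 1.05 and 46.5% in the same order. The 10 without one in any list included Pecam1, Cdh5, Tek and Vwf, which had regions elsewhere: Cdh5, the gene of VE-cadherin, had 3 regions in WDM-CDO alone, 1 in CDM-WDO alone and 3 in both. Tie1, an angiopoietin coreceptor gene, had 29, 40, 49 and 35 reads in the 4 lists in the order CDM-CDO, WDM-CDO, CDM-WDO, WDM-WDO, so its summit was highest in CDM-WDO. The 1 end in WDM-CDO alone was that of the adhesion molecule gene Icam2, with 46, 62 and 44 reads in the lists other than CDM-WDO, where 36.9 were expected. Of 67 regions near these genes, 23 were in WDM-CDO alone (34.3%, 24.1 to 46.3%) and 11 in CDM-WDO alone (16.4%, 9.42 to 27.1%). The order of these shares turned at equal list length, where 10 of 54 regions were in WDM-CDO alone (18.5%, all regions 29.99%) and 20 in CDM-WDO alone (37.0%, all regions 22.5%). At a −log10 q of 5 or more they were 17 of 35 (48.6%, all regions 44.5%) and 1 (2.86%, all regions 3.68%). Erg, an ETS factor gene, had 5 and 1.

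Genes of vascular tone and of Notch signalling held one-sided ends on both sides. In WDM-CDO alone they were 3 of 18 (16.7%) and 4 of 22 (18.2%), near the 11.9% of all genes. In CDM-WDO alone each list had 1 (5.56% and 4.55%, against 1.05% of all genes). Regions near them were in WDM-CDO alone in 45.3% and 39.4% of cases and in CDM-WDO alone in 14.1% and 18.2%. The intervals of these shares held the 45.7% and 14.6% of all regions. Nos3, the endothelial nitric oxide synthase gene, had 43 reads in CDM-CDO, 83 in WDM-CDO, 61 in WDM-WDO and no peak in CDM-WDO, where 48.5 were expected. Plxnd1, a semaphorin receptor gene that senses flow, had 96 reads in WDM-CDO and 64 in WDM-WDO, and no peak with CD mothers. Ednrb, the endothelin B receptor gene, had 24, 25 and 33 reads in CDM-CDO, CDM-WDO and WDM-WDO and none in WDM-CDO, and Ptgs1 had 34 in WDM-CDO only. Notch4 had 44 reads in CDM-WDO and no peak in another list (chr17:34564066-34564962), where WDM-CDO would be expected to show 74.8. Hey1, a Notch target gene, went the other way, with 52 and 51 reads in the CDO lists and none in the WDO lists. The ligand gene Dll1 (22 and 37 reads in the CDO lists), the endothelial tip cell gene Esm1 (33 reads in WDM-CDO only) and the apelin receptor gene Aplnr (21 reads in WDM-CDO only) also had an end in WDM-CDO alone. Of the 22 Notch and angiogenesis genes, 14 had an end in both lists.

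Of 25 genes of chromatin-modifying enzymes and readers, most of them acting on histones, 18 were open at an end in both lists, 4 in WDM-CDO alone (16%, near the 11.9% of all genes) and 0 in CDM-WDO alone (1.05% of all genes). Regions near them, 28 of 67 in WDM-CDO alone (41.8%, 30.7 to 53.7%) and 7 in CDM-WDO alone (10.4%, 5.15 to 20%), also lay near the shares of all regions. Dot1l had 126 reads in WDM-CDO and no peak in any other list (chr10:80754946-80755332), with 72.4 expected in CDM-WDO. Kat6a, an acetyltransferase gene, had 53 reads in WDM-CDO and likewise no peak elsewhere. Hdac7, a deacetylase gene of endothelium, had 36, 68 and 30 reads and the deacetylase gene Sirt1 41, 59 and 42 in CDM-CDO, WDM-CDO and WDM-WDO. For the first pair a peak was thus called in WDM-CDO only, and for the second pair in every list but CDM-WDO. All 4 had expected reads of 31.9 or more in CDM-WDO.

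Of 18 genes of cholesterol synthesis and uptake, 3 had an end in WDM-CDO alone (16.7%, against 11.9% of all genes), among them those of Scap, the sterol sensor that escorts SREBP (42 and 61 reads in the CDO lists, none in the WDO lists), and of the desaturase gene Sc5d (41, 58 and 55 in CDM-CDO, WDM-CDO and WDM-WDO). The expected reads of Scap and Sc5d in CDM-WDO were 36.3 and 34.6, and 13 members were open in both lists. Nr1h3, the LXR alpha gene of the export list, had 29, 40 and 63 reads in the lists other than CDM-WDO. Pltp and Rxra were the other 2 of that list's 16 (3 in all, 18.8%), with 29 and 31 reads in WDM-CDO. Both shares lay near that of all genes. Regions in WDM-CDO alone were 9 of 26 near synthesis genes (34.6%, 19.4 to 53.8%) and 31 of 62 near export genes (50%, 37.9 to 62.1%), and both intervals held the 45.7% of all regions. Fabp4, a fatty acid carrier gene, was open in both CDO lists (34 and 51 reads), while Ppargc1a, a coactivator gene of mitochondrial biogenesis, had 20 reads in CDM-WDO only and 4 regions in CDM-WDO alone.

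NF-kB genes had an end in both lists at 18 of 22 members, AP-1 and early response genes at 19 of 22 and interferon response genes at 13 of 18. Of all genes, 40.6% had one in both lists. Adhesion and chemokine genes had one in both at 8 of 18, in each list alone at 2 and in neither at 6. The 2 a side were 11.1%, against 11.9% of all genes in WDM-CDO alone and 1.05% in CDM-WDO alone. Of their 40 regions, 11 were in WDM-CDO alone (27.5%, 16.1 to 42.8%) and 8 in CDM-WDO alone (20%, 10.5 to 34.8%). Tnf, the cytokine gene, had 35 reads in CDM-WDO, 61 in CDM-CDO and 115 in WDM-WDO, and no peak in WDM-CDO, where 58.7 were expected. Ccl2, the monocyte chemokine gene, had 32 reads in CDM-WDO and 58 in WDM-WDO and no peak in the CDO lists, and Cx3cl1 had 26 in CDM-WDO only. On the other side, Cxcl10 had 39, 45 and 47 reads and Rsad2, an antiviral gene, 34, 51 and 51 in CDM-CDO, WDM-CDO and WDM-WDO. Ccl7, Ifit1, Oas2 and Tnip1 were the weaker ends of WDM-CDO alone in these lists, at 21 to 32 reads, and had 32 to 56 in WDM-WDO. The AP-1 partner genes Batf and Batf3 had 34 and 35 reads in WDM-CDO. Near AP-1 and early response genes, 18 of 72 regions were in WDM-CDO alone (25%, 16.4 to 36.1%) and 3 in CDM-WDO alone (4.17%, 1.43 to 11.5%), both below the shares of all regions, as 51 were shared.

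The remaining lists had at most 2 one-sided ends a side. In WDM-CDO alone these included Gclc and Nox4 of oxidative stress (56 and 25 reads), Tgfb2 and Twist1 of TGF-beta and mesenchymal transition (38 and 26), Egln1 of glycolysis and hypoxia (36), Tagln and Pdgfrb of smooth muscle (43 and 32), Col1a1 and Pi16 of fibroblasts (51 and 31), Gp9 and Gp5 of platelets (24 and 39) and, with Actb, Ywhaz of housekeeping genes (26). In CDM-WDO alone there was Col1a2 of fibroblasts (19). Smooth muscle markers had an end peak at 3, 3, 1 and 1 of 14 members, fibroblast markers at 2, 3, 2 and 3 of 14, red cell markers at 2, 2, 1 and 1 of 10, platelet markers at 1, 2, 0 and 3 of 8 and adipocyte markers at 1 of 10 in each list, in the order CDM-CDO, WDM-CDO, CDM-WDO and WDM-WDO. Housekeeping genes had one at 19, 19, 17 and 18 of 20.

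**Figure D4:**
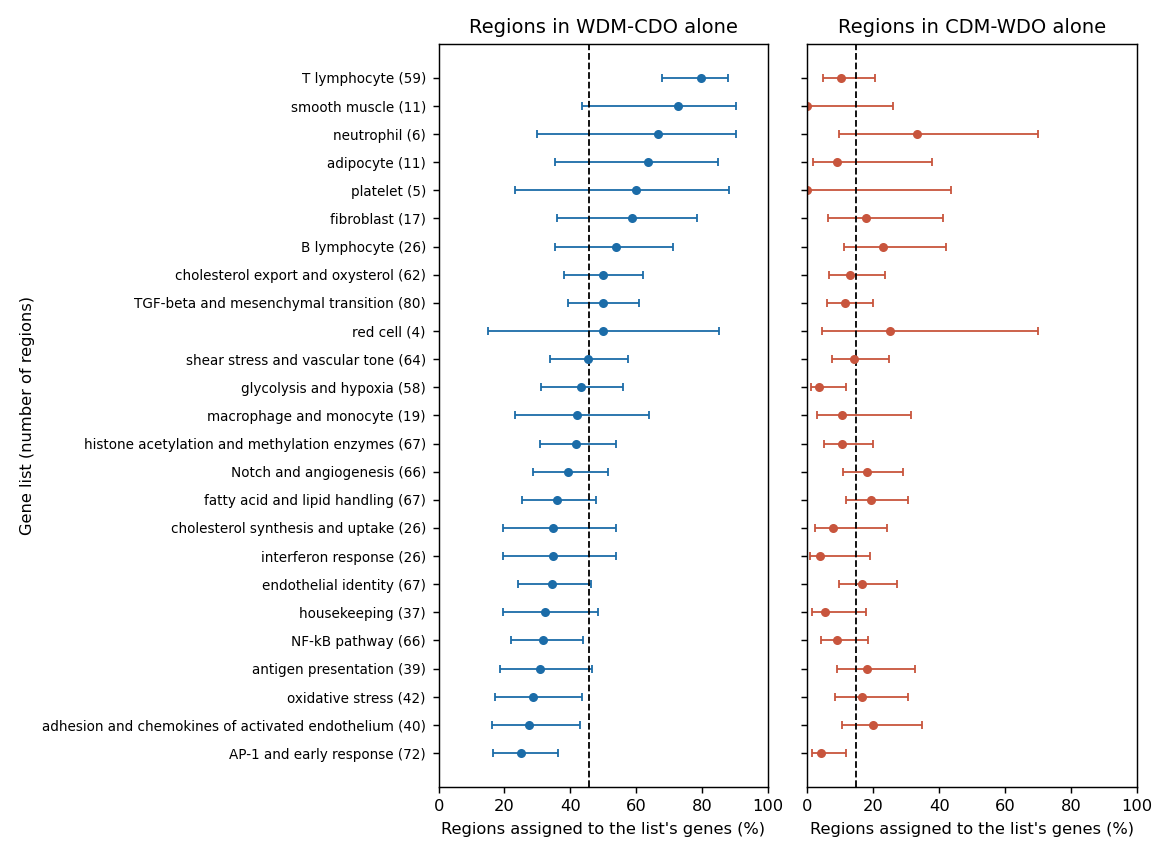
Share of the regions near each gene list that were in WDM-CDO alone (left) or in CDM-WDO alone (right), in percent with 95% Wilson intervals; the number of regions stands beside each list, and dashed lines mark all regions assigned to a gene (45.7% and 14.6%). The T lymphocyte list, at 79.7%, is the list whose interval lies wholly above the dashed line on the left, and AP-1 and early response genes lie wholly below both lines. Adhesion and chemokine, NF-kB and oxidative stress genes also lie wholly below the left line (upper bounds 42.8, 43.8 and 43.6%), and glycolysis and hypoxia genes below the right line (11.7%).

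Among all genes, the strongest end of WDM-CDO alone, after Actb, lay at Esco2, which encodes a cohesin acetyltransferase (chr14:65833534-65834182; 81, 148 and 95 reads in CDM-CDO, WDM-CDO and WDM-WDO). Next came the lymphoid surface antigen gene Ly6d (153 and 160 reads in the CDO lists, none in the WDO lists) and Bicdl1 (70, 132 and 48). Gas7 shared the pattern of Ly6d, with 184 and 174 reads in the CDO lists and no peak in the WDO lists. Dennd1c (80, 128 and 76), Prr29 (82, 125 and 42) and Arhgap33 (69, 114 and 76) were open in every list but CDM-WDO. A single peak of 104 reads at the facing starts of Gm527 and Gm51965 (chr12:64917659-64917984) was in no other list. The strongest of CDM-WDO alone was that of Pxn, the focal adhesion adaptor gene of paxillin (chr5:115491916-115492266), with 80 reads and 123 in WDM-WDO. Gcnt2, a glycosyltransferase gene, and F10, the gene of coagulation factor X, followed the same pattern, with 37 and 39 reads and 47 and 81 reads in CDM-WDO and WDM-WDO. Dipk2b, on the X chromosome, had 35 reads in CDM-WDO only. The imprinted genes Snrpn and Snurf shared 1 peak, with 18 reads in CDM-CDO and 26 in CDM-WDO, that is, with CD mothers only. The gene 5730409E04Rik, of unknown role, had 20, 40 and 54 reads in every list but WDM-CDO.

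Over all regions assigned to a gene, at its ends or away from them, the genes with the most regions in WDM-CDO alone were Foxp1 (19 regions), Maml3 (17), Akap13 (14), Msi2 (13) and Pde4d (12). Foxp1 encodes a forkhead factor of lymphocytes and endothelium, and Maml3 a Notch coactivator. Of the Foxp1 regions 10 were also in CDM-CDO and 10 in WDM-WDO, and the strongest had a −log10 q of 37.7. The genes with the most regions in CDM-WDO alone were Cntn5 (10), Lrp1b (9), Galntl6 (8), Nrxn3 (7) and Lrrc7 (7), among them adhesion and synaptic genes of neurons. Both sets of genes are long, 299 to 1302 kb for WDM-CDO and 495 to 2058 kb for CDM-WDO, and counts were not divided by length. The strongest regions of the CDM-WDO set had a −log10 q of 3.77 to 5.79, against 23.0 to 37.7 in the WDM-CDO set. At most 1 region of each of the 5 CDM-WDO genes was also in CDM-CDO and at most 1 in WDM-WDO. The strongest single peaks of CDM-WDO alone away from gene ends lay 15659 bp from Gm15319 (37, 44 and 35 reads in CDM-CDO, CDM-WDO and WDM-WDO), in the cytoskeletal gene Epb41l2 (51 and 84 in CDM-WDO and WDM-WDO), in the scaffold gene Iqgap1 (42, 62 and 80), in Lhfpl3 (23 and 45 in CDM-CDO and CDM-WDO) and 3091 bp from the sulfatase gene Arsa (63, in CDM-WDO only).

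Shared gene ends extend the comparison to differences in height. At 7499 genes whose end peak was shared and held at least 50 reads in either list, the ratio of summit reads above background in CDM-WDO over WDM-CDO, divided by the median ratio of strong shared peaks, had a median log2 of −0.06, and 5% of genes lay below −0.65 and 5% above 0.45. It exceeded 1 at 18 genes and lay below −1 at 69. The lowest values were those of the meiotic recombination gene Spo11 (138, 226, 29 and 65 reads in the same order of lists as for Tie1, log2 ratio −2.38), Carmil2, a gene of T cell costimulation (107, 162, 27 and 59 reads, −2.02), the leukocyte selectin ligand gene Selplg (154, 242, 41 and 92 reads, −1.89) and the histone genes H2bc22 and H2ac22, which share a peak (99, 162, 34 and 92 reads, −1.61). In reads not scaled for depth, all of them were lowest in CDM-WDO and highest in WDM-CDO. The highest ratios were those of Zbtb16 (40, 41, 62 and 43 reads, 1.52), the dendritic and B cell gene Cd83 (42, 51, 64 and 87 reads, 1.21), the cross-presentation gene Wdfy4 (32, 47, 58 and 118 reads, 1.19), H2-Aa (1.17) and the semaphorin gene Sema6b (45, 78, 95 and 102 reads, 1.15). Except for Zbtb16, these summits held more reads still in WDM-WDO. The exact 95% counting interval ran from −2.73 to −1.55 for Spo11 and from 0.85 to 2.05 for Zbtb16; these genes were chosen for their ratios, so the intervals are a description.

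**Figure D5:**
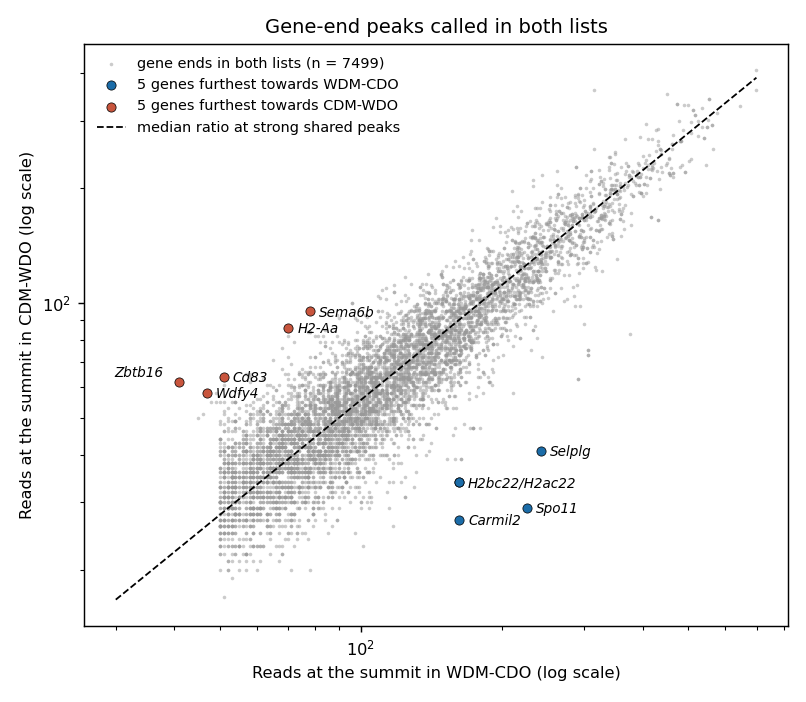
Reads at the summit in WDM-CDO (horizontal) and CDM-WDO (vertical), both on log scales, for 7499 gene ends with a peak in both lists; the dashed line is the median ratio at strong shared peaks, 0.556. The 5 genes furthest to each side are coloured and named, with Spo11, Carmil2 and Selplg below the cloud and Zbtb16, Cd83, Wdfy4 and H2-Aa above it.

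The start regions of the sides differed in composition. Those open in WDM-CDO alone (2396 start regions) had a median of 18 CpG and a GC content of 60.3%, near those open in both lists (8537, with 23 CpG and 62.0%). Those open in CDM-WDO alone (210) had 8 CpG and 54.7%, between these and the ones open in neither list (9902, with 4 CpG and 49.7%). GGGCGG was found in 60.4%, 43.8%, 69.6% and 23.7% of start regions open in WDM-CDO alone, in CDM-WDO alone, in both and in neither, and CCGGAAG in 15%, 5.24%, 20.6% and 3.35%. TGANTCA went the other way, with 5.84%, 8.10% (17 of 210, 5.12 to 12.6%), 4.06% and 9.87%. AAGATGGC was found in 0 of the 210 of CDM-WDO alone, which allows a share of up to 1.80% by the Wilson interval, and in 3.67% of those of WDM-CDO alone. The other motifs searched were CRE (TGACGTCA), CACCC (CCACACCC), the E-box (CACGTG), NRF1 (GCATGCGC), NF-Y (CCAAT), SOX (ACAATGG), RUNX (TGTGGTT), IRF (GAAA, any 2 bases, then GAAA) and FOX (TGTTTAC), and matches of different motifs may overlap. They were found in 2.26%, 3.64%, 7.91%, 3.54%, 38.5%, 2.94%, 4.74%, 3.38% and 3.03% of all start regions. In start regions of CDM-WDO alone they were found in 1.43%, 5.24%, 6.19%, 0.952%, 31.0%, 3.33%, 5.24%, 3.33% and 2.38%. NRF1, CACCC and NF-Y were among the motifs that did not follow the order of CpG. They were found in 1.17%, 3.42% and 38.4% of start regions open in neither list. In those open in both lists they were found in 6.2%, 3.90% and 40.2%, and in WDM-CDO alone in 4.13%, 3.51% and 33.3%. The NRF1 share in CDM-WDO alone rested on 2 of 210 start regions (0.262 to 3.41%). GC content and CpG were not held equal between these sets.

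By chromosome, the one-sided share of CDM-WDO peaks ranged from 18.3% on chromosome 11, which is rich in genes, to 54.8% on the X chromosome, and that of WDM-CDO peaks from 51.0% on chromosome 11 to 61.3% on the X chromosome. The X chromosome held 3.97% of all peaks in CDM-WDO (3.70 to 4.25%), 3.09% in WDM-CDO, 3.05% in CDM-CDO and 2.22% in WDM-WDO. A peak over Xist, the RNA gene of X inactivation, was present in all 4 lists, with 46, 58, 53 and 50 reads in CDM-CDO, WDM-CDO, CDM-WDO and WDM-WDO.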

How the data were processed

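ATAC-seq of 8 MAEC samples, 2 in each of 4 groups, was used as 1 narrowPeak list per group; the 4 H3K27ac samples were not analysed here. Per the submitters' processing notes, which give no order or settings, alignment tools were Bowtie2 2.4.5 and SAMtools 1.13, the peak caller was MACS2 2.2.9.1, and the others named were Trim Galore 0.6.10, FastQC 0.12.1 and deepTools 3.5.4, on GRCm38 (mm10). The sources used here do not say whether a group's samples were pooled before peak calling or whether reads were moved to the transposase cut. The fold enrichment, a ratio of each summit to its local background, was used as the authors deposited it. The −log10 p and −log10 q values are likewise those the authors deposited, the score column of the deposited files was not used, and the summit offset, entered as a score, gave the summit's place.

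Peaks on chromosomes 1 to 19 and X were taken once each. The whole number of reads k at a summit was recovered as the value that meets both the deposited fold, (k + 1) over (background + 1), and the Poisson −log10 p; a whole number met both within 0.0001 for 100% of peaks in each list. Expected reads in the other list scale the pileup above background by the median ratio at 4440 strong one-to-one shared peaks, those in the strongest 25% of both lists. A call's read number is that at the lowest background. The recovery, overlap and ratio steps were tested on simulated data. Genes were 21631 protein-coding RefSeq genes of GRCm38.p6; the transcription start was known for 17274, and for the others either end counted. A peak that overlapped a gene-end peak of the other list counted for that gene too, even outside the 1 kb window. The lists held 425 genes, all of which matched. There were 21045 start regions, and a gene could have more than 1. The members, gene lists and tests were chosen with earlier results of these data known. Genes named were the 10 strongest one-sided ends a side, up to 4 one-sided members a list and side by −log10 q, the 5 genes with most one-sided regions, the 5 strongest one-sided peaks away from gene ends, and the 5 genes at each extreme of the ratio at shared ends with 50 or more reads; some genes that this rule names are not reported here. Alternatives were other overlap rules, a stricter −log10 q, equal list lengths, a depth limit, other windows and other assignment distances; 2 on gene ends were added after seeing the data. Analyses used Python 3.11.15, numpy 2.4.6, pandas 2.3.3, scipy 1.17.1 and matplotlib 3.10.9.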

Additional observations from a re-analysis of the deposited data

Results flagged for a closer look

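Chromosome Y was left out of the comparison, and WDM-CDO had 5 peaks on it, against 4 in CDM-CDO, the group with CD in both generations, 3 in CDM-WDO and 8 in WDM-WDO. All of them lay between 90737845 and 90812983 of chromosome Y. The strongest had a −log10 q of 29.3 in WDM-CDO and 19 in CDM-WDO. The sources used here do not state the sex of the cells, and the origin of these peaks was not tested.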

How the results depend on the processing

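No paired analysis was possible because each group had 1 peak list that does not separate its samples. The values below give, in order, the one-sided share of WDM-CDO peaks, the shares of those in CDM-CDO and in WDM-WDO, and the same for CDM-WDO peaks, in percent. As reported they were 55.9, 37.3, 30.4, 33.9, 6.62 and 14.4. With overlap of at least 50% of both peaks they were 62.5, 34.7, 25.7, 44.0, 10.4 and 16.6. With peaks within 500 bp counted as shared they were 55.1, 38.2, 31.7, 33.0, 6.88 and 15. With a −log10 q of 5 or more in every list they were 47.1, 55.5, 43.3, 7.55, 9.23 and 45.3. At equal list length they were 39.6, 62.3, 40.5, 39.2, 6.87 and 13.7. Limited by depth, which is stricter for WDM-CDO peaks, they were 19.6, 88.7, 64.9, 19.5, 10.5 and 26. The share of WDM-CDO-only peaks found in CDM-CDO lay above that of CDM-WDO-only peaks under all 5 alternatives. For WDM-WDO it lay below at a −log10 q of 5 or more and above under the other 4. Genes with an end in WDM-CDO alone numbered 681 when limited by depth, and 1984 to 2693 under the other 5 alternatives. Genes with an end in CDM-WDO alone numbered 59 at a −log10 q of 5 or more, 361 at equal list length and 159 to 249 under the other 4. The 2 added alternatives gave 2626 and 233 genes with peaks inside the window only, and 2544 and 249 with either end of every gene. T lymphocyte regions in WDM-CDO alone were 78.4% with assignment within 10 kb, 87.5% at a −log10 q of 5 or more and 75% at equal list length, where all regions were at 43.8, 44.5 and 29.99%. Of the 25 lists, 21 to 25 stayed on the same side of all regions for WDM-CDO under these 3 alternatives and 16 to 23 for CDM-WDO. Depth limits the weak ends of WDM-CDO, whose expected reads in CDM-WDO can lie near or below a call, and with 1 list a group the spread between samples is unknown.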
